A study of Mus musculus with 6 samples.

Results

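The genes of cholesterol and fatty acid synthesis were followed in the uterus of mice that lack Indian hedgehog (Ihh), a secreted ligand that the uterine epithelium makes and the underlying stroma receives. The set holds 30 named genes, 20 of a sterol branch and 10 of a fatty acid branch, and its members were named by gene function, with earlier results of these data known. A gene was followed through every probe set that the platform annotation gives to it alone, which found 29 genes and 69 probe sets among 18193 genes and 45037 probe sets in all. Acat2 was not analysed here, and 1 further probe set that Acss2 shares with another gene was left out.

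The arrays compared Ihhd/d uteri, with floxed Ihh alleles removed by a Cre recombinase at 1 progesterone receptor allele (PRcre/+ Ihhf/f), with Ihhf/f uteri, which carry the floxed alleles without Cre. Both groups were collected at day -1 of artificially induced decidualization, a hormonal and mechanical stand-in for pregnancy, and are called Ihh-ablated and control. Each group had 3 samples of whole uterine RNA, and each sample 1 Affymetrix mouse expression array, which gives an intensity per probe set. The labels give no age, and they do not say whether each sample was a separate mouse, so each p-value speaks only of how much these samples vary, possibly for technical reasons. For all samples the labels' source entry mentions SmoM2, which disagrees with the titles, genotypes and design text and was left aside. The Cre acts in the cells that express the progesterone receptor, and effects of Cre itself or of the altered receptor allele are confounded with Ihh removal and cannot be told apart.

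Array medians were 124.6, 123.3 and 121.4 in Ihh-ablated and 125.8, 142.5 and 125.8 in control samples, so control array 2 stood apart. In the alternative fit with array weights, control array 2 got a weight of 0.24 and the others 0.80 to 2.02. The Ihh probe set read 121.4, 93.3 and 135.4 in Ihh-ablated and 163.9, 162.3 and 140.2 in control samples, a log2 difference of -0.43 that did not pass the test (limma adjusted p = 0.164). Gli1, whose transcription reports Hedgehog signalling, fell by 2.53 on the log2 scale in Ihh-ablated samples (adjusted p = 0.000492). Uterine markers were bright on every array: the 10 stroma markers summed to 39003 to 39928 in Ihh-ablated and 40615 to 44702 in control samples, and the 10 epithelial ones to 17812 to 20036 in Ihh-ablated and 12715 to 18340 in control samples. The marker lists of other tissues set single arrays apart, and striated muscle also differed between the groups. Pancreas markers summed to 76335 on Ihh-ablated array 2 and to between 1010 and 2713 on the other arrays. Striated muscle markers summed to 6815, 6469 and 7084 in Ihh-ablated and to 9649, 9802 and 18161 in control samples. All 9 tested were lower on average in Ihh-ablated samples, and 1 passed, Acta1 (log2 -1.73, limma adjusted p = 0.00208). In whole tissue, fewer cells of a type and less RNA per cell cannot be told apart.

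Cholesterol is built from acetyl-CoA through mevalonate, the isoprenoid farnesyl diphosphate, squalene and lanosterol. Fatty acids are built from the same acetyl-CoA by Acaca and Fasn and are then lengthened and desaturated. A pair of related transcription factors drive both routes, SREBP-2 (Srebf2) mainly the sterol and SREBP-1 (Srebf1) mainly the fatty acid genes, and sterol excess holds both in the endoplasmic reticulum through Insig1. Growing cells use both products for membranes, and adipocytes are rich in the fatty acid enzymes.

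Promoter stretches of 4 members are shown as examples: Hmgcs1 and Idi1 from the sterol branch, and Fasn and Elovl6, fatty acid genes that differed in opposite directions. Each is the 200 bases before the gene's start in RefSeq (GRCm38.p6), on the gene's strand and 5′ to 3′. Capitals mark matches, on either strand, to TCACNCCAC (1 form of the sterol regulatory element read by SREBPs), CCAAT (the NF-Y box, an SREBP partner) and CACGTG (the E-box). Hmgcs1 lies at chr13:119690151-119690350 (plus strand), Idi1 at chr13:8885406-8885605 (plus), Fasn at chr11:120824548-120824747 (minus) and Elovl6 at chr3:129532186-129532385 (plus).
Hmgcs1: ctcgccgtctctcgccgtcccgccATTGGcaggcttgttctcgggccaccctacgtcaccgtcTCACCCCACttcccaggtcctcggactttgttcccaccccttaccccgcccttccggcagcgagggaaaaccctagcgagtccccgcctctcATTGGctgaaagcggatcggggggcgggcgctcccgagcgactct
Idi1: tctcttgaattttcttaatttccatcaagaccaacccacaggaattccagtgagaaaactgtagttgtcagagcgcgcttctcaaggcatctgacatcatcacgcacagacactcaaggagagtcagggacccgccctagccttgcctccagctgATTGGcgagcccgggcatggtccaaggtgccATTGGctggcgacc
Fasn: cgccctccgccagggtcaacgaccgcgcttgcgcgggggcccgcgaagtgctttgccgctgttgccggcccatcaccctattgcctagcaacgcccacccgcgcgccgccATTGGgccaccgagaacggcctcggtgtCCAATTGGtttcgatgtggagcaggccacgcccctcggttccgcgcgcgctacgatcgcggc
Elovl6: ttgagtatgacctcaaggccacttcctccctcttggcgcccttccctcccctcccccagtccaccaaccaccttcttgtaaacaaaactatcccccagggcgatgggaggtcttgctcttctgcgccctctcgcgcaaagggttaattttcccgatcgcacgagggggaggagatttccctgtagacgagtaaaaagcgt
The sterol element of Hmgcs1 begins 137 bases before the start, between NF-Y boxes that begin 176 and 45 bases before it. Idi1 has NF-Y boxes 45 and 14 bases before the start. Fasn has 3, of which the pair in CCAATTGG overlaps, and the Elovl6 stretch holds none of the 3 motifs. RefSeq promoters (250 bases before to 50 after the start) were at hand for 23 members. CCAAT occurred in those of 19 members, 15 of 16 in the sterol and 4 of 7 in the fatty acid branch, against 41.1% of all 27025 genes in the table and 37.4% of all 32851 promoters. CACGTG occurred in 4 members (Hsd17b7, Sc5d, Dhcr7 and Insig1; 8.09% of all genes, 7.15% of all promoters). TCACNCCAC occurred in Hmgcs1 alone (1.44% of all genes, 1.24% of all promoters). A match is a stretch of letters and not a measured binding site. Only these strings in this window were searched, so a missing match does not show that a gene lacks a site.

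The 2 branches lay on opposite sides of no difference, and nearly every member differed by little. By the brightest probe set of each gene, 16 of 19 sterol members were lower on average in Ihh-ablated samples, with a median log2 difference (Ihh-ablated minus control) of -0.18, and 9 of 10 fatty acid members were higher, with a median of 0.17. Over all 15530 genes tested the median was -0.04, and 56.7% were lower. With each array centred on its median, the sterol median was -0.09 with 13 of 19 lower, the fatty acid median 0.26 with 9 of 10 higher, and the median of all genes 0.05 with 41.6% lower.

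None of the 29 members passed the test by its brightest probe set (limma, Benjamini-Hochberg over all tested probe sets, adjusted p under 0.05), where 2.81% of all genes passed, 1.28% as higher and 1.53% as lower in Ihh-ablated samples. At an unadjusted p under 0.05 there were 10 of 29 members, against 24.2% of all genes. In the sterol branch these were 4 members (21.1%), 3 lower and 1 higher in Ihh-ablated samples. In the fatty acid branch they were 6 (60.0%), 5 higher and 1 lower. Of the 59 member probe sets that were bright enough to be tested, 1 passed, a probe set of Scd2, where 2.14% of all probe sets did. Every Ihh-ablated array lay below every control array for 4 sterol members and Elovl6 (19.0% of all genes), and above for 5 fatty acid members (13.3% of all genes). With 3 arrays a group the standard errors of the members ran from 0.07 to 0.53 on the log2 scale, and the confidence intervals of 19 of them included 0.

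**Figure D1:**
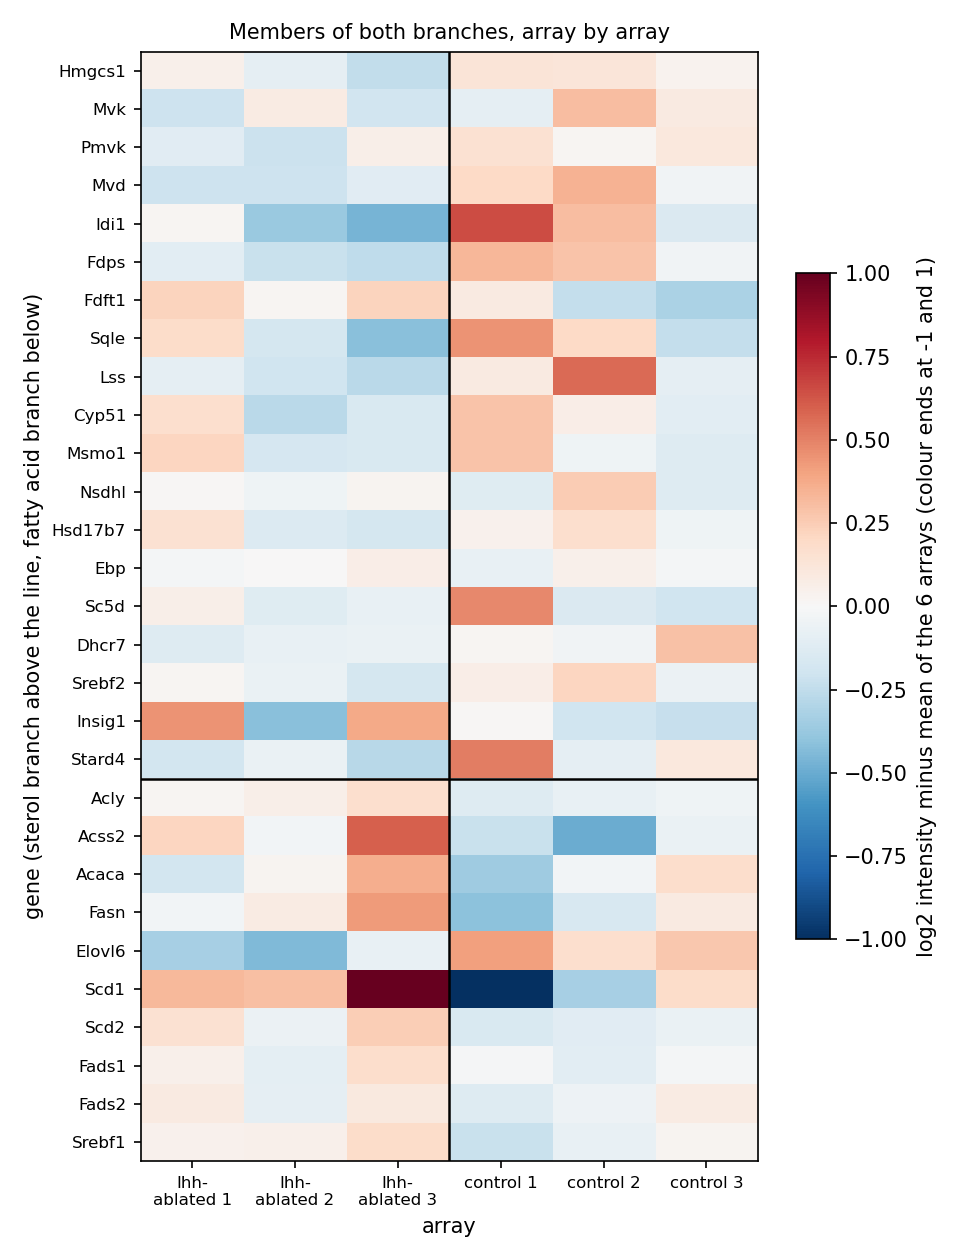
Log2 intensity of the 29 members on the 6 arrays (columns, Ihh-ablated left of the line and control right of it), as the difference from each gene's mean over the arrays, 1 row per gene by its brightest probe set. Most sterol rows are darkest red on either control array 1 or control array 2. As a mean over the sterol rows, control array 3 sits closer to the Ihh-ablated arrays. Scd1 goes past the end of the colour scale on Ihh-ablated array 3 and control array 1.

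**Figure D2:**
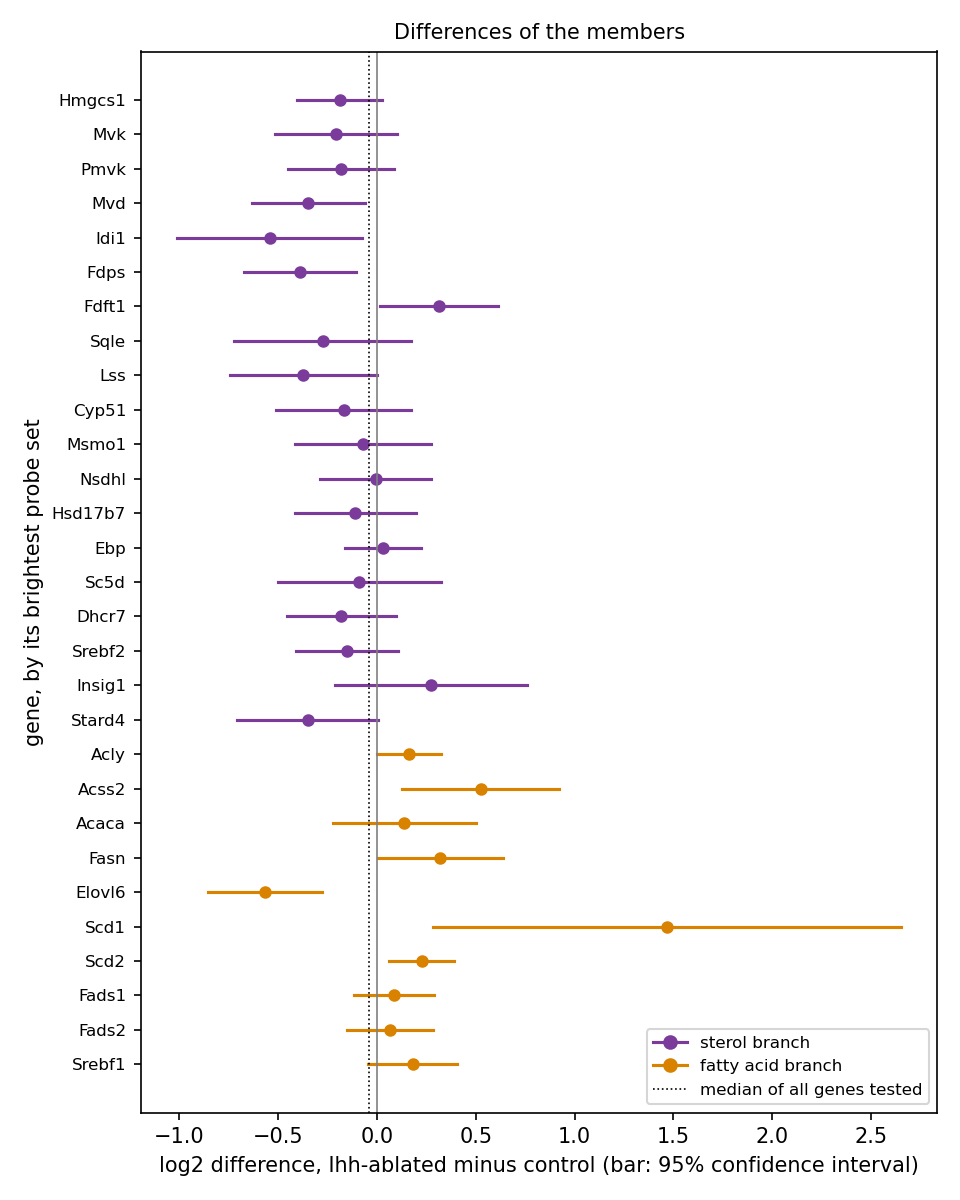
Log2 difference of each member (point) with its 95% confidence interval (bar) from the limma fit. Of the sterol members 16 lie left of 0 and of the fatty acid members 9 lie right of it, and the exceptions are Fdft1, Ebp and Insig1 above the fatty acid rows and Elovl6 among them.

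The mevalonate steps, which run from acetyl-CoA to farnesyl diphosphate, leaned the same way in all 6 measured members, with a median of -0.28. Fdps, which makes farnesyl diphosphate, read 245.0, 226.0 and 221.5 in Ihh-ablated and 332.6, 321.0 and 257.6 in control samples. All 3 Ihh-ablated arrays lay below all 3 control arrays, and control array 3 came nearest to them. The log2 difference was -0.39 (95% confidence interval -0.67 to -0.11), with an adjusted p of 0.131. Its dimmer probe set differed by -0.34.

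Idi1, the isomerase that makes the reactive isoprene unit, read 170.6, 130.5 and 122.0 in Ihh-ablated and 264.1, 208.6 and 152.4 in control samples. The groups overlapped, because Ihh-ablated array 1 lay above control array 3. Its difference of -0.54 (-1.01 to -0.07, adjusted p = 0.173) was the lowest of the sterol branch, and its other probe set gave -0.37. Mvd, which decarboxylates mevalonate diphosphate, read 173.3, 173.4 and 184.5 in Ihh-ablated and 229.6, 254.4 and 195.2 in control samples. The Ihh-ablated arrays lay close together and below all control arrays. Its difference was -0.35 (adjusted p = 0.161), and a second probe set gave -0.39 (0.157).

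The remaining mevalonate members differed by less. Hmgcs1, the synthase that condenses acetyl groups into HMG-CoA, averaged 664 ± 67.4 in Ihh-ablated and 753 ± 27.6 in control samples (intensity, SD, n = 3 each), a difference of -0.19, and its 3 other tested probe sets gave -0.06 to -0.09. Mvk and Pmvk, the kinases that phosphorylate mevalonate in turn, differed by -0.21 and -0.18. A second Mvk probe set read 193.7, 180.7 and 164.0 in Ihh-ablated and 228.2, 273.7 and 194.7 in control samples, again without overlap, with a difference of -0.36 (adjusted p = 0.187).

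The steps from farnesyl diphosphate to cholesterol were more mixed, with a median of -0.10, 8 of 10 lower and 0 past the test. With median-centred arrays 5 of 10 were lower and the median was -0.01. Lss, which closes squalene epoxide to lanosterol, read 219.1, 203.4 and 194.3 in Ihh-ablated and 247.9, 345.0 and 219.4 in control samples. The groups did not overlap, but Ihh-ablated array 1 and control array 3 were nearly equal and control array 2 stood high. The difference was -0.37 (adjusted p = 0.218), and -0.18 without control array 2 (0.383). A probe set too dim to be tested ran the other way, at 82.1, 73.0 and 83.5 in Ihh-ablated and 49.99, 52.6 and 65.1 in control samples, without overlap. The mean of the Lss probe sets differed by 0.01, so its direction depends on the probe set. Sqle, the epoxidase that is a rate-limiting step, read 311.9, 243.9 and 206.0 in Ihh-ablated and 375.6, 315.5 and 233.6 in control samples, which overlap. Its difference was -0.27 with a confidence interval of -0.72 to 0.17.

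Dhcr7, the last reductase of the route, read 180.0, 187.9 and 188.0 in Ihh-ablated and 199.5, 192.6 and 241.1 in control samples. It did not overlap, though the gap to control array 2 was small, and its difference was -0.18 (adjusted p = 0.384). Cyp51, the lanosterol demethylase, differed by -0.17, Hsd17b7, a ketoreductase of the demethylation complex, by -0.11, Sc5d, a desaturase, by -0.09, and Msmo1, a methyl oxidase, by -0.07. Nsdhl (-0.01, interval -0.29 to 0.28) and Ebp (0.03, interval -0.16 to 0.22), a decarboxylating dehydrogenase and an isomerase, lay nearest to 0.

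Fdft1, squalene synthase and the first step committed to sterols, gave opposite readings from its probe sets. The brightest read 325.7, 282.6 and 325.4 in Ihh-ablated and 296.1, 235.6 and 223.6 in control samples, a difference of 0.31 (adjusted p = 0.202), and a second gave 0.26 (0.227). Another probe set read 94.0, 90.9 and 94.0 in Ihh-ablated and 109.8, 158.3 and 113.9 in control samples, a difference of -0.43 (0.157), and the last gave -0.53 (0.220). The mean of the 4 probe sets differed by -0.10, so no direction can be given for this gene. Sc5d was likewise split, with 0.26 and 0.16 from its dimmer probe sets. These were 2 of 19 members with more than 1 tested probe set, and the other 17 had all their tested probe sets on 1 side of 0.

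The sensors and carriers of the sterol branch did not move together. Srebf2, which encodes SREBP-2, differed by -0.15 (interval -0.41 to 0.11), with -0.12 from its other probe set. Stard4, a sterol carrier that SREBP-2 induces, read 192.0, 208.8 and 179.9 in Ihh-ablated and 311.2, 204.5 and 235.2 in control samples. Ihh-ablated array 2 lay above control array 2, and the difference was -0.35 (adjusted p = 0.226). Insig1, itself a target of SREBPs, read 301.9, 164.7 and 286.9 in Ihh-ablated and 222.3, 192.5 and 188.3 in control samples. It had both the highest and the lowest reading in the Ihh-ablated group, so that its difference of 0.27 has an interval of -0.21 to 0.76.

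Array by array, the mean log2 level of the 19 sterol members was 7.93, 7.76 and 7.78 in Ihh-ablated and 8.08, 8.01 and 7.84 in control samples. Control array 3 lay below Ihh-ablated array 1, so the groups overlap as a branch. Control array 3 was also the array richest in striated muscle transcripts. Without it, Fdps (-0.50, adjusted p = 0.0286) and Idi1 (-0.75, 0.0334) passed the test, 2 of 19 sterol members in a fit that called 12.2% of all genes. Neither passed in any other alternative. Without any 1 of the other arrays, Fdps differed by -0.32 to -0.43 (0.224 to 0.375) and Idi1 by -0.35 to -0.69 (0.217 to 0.456). Markers of dividing cells were lower along with the branch: all 9 measured fell, and they summed to 1871, 1838 and 2167 in Ihh-ablated and 6026, 5708 and 4847 in control samples. Their part in the sterol result was not tested.

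The first steps of fatty acid synthesis were higher on average in all 4 members, with a median of 0.24 and 0 past the test. Acss2, which makes acetyl-CoA from acetate, read 256.0, 216.4 and 333.3 in Ihh-ablated and 188.5, 156.3 and 210.5 in control samples. All Ihh-ablated arrays lay above all control arrays, array 2 only just. The difference was 0.52 (interval 0.13 to 0.92, adjusted p = 0.139), and a second probe set gave 0.46 (0.148). Acly, which makes acetyl-CoA from citrate, read 1217, 1254 and 1353 in Ihh-ablated and 1101, 1142 and 1168 in control samples. Its groups did not overlap, in its brightest and in 2 further probe sets, with differences of 0.16, 0.14 and 0.28 (adjusted p = 0.216, 0.320 and 0.153).

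Fasn, the synthase that assembles palmitate, read 2308, 2490 and 3149 in Ihh-ablated and 1768, 2102 and 2506 in control samples. Control array 3 lay above 2 of the Ihh-ablated arrays, and the difference was 0.32 (interval 0.00 to 0.64, adjusted p = 0.214). Acaca, the carboxylase that makes malonyl-CoA, read 856.3, 988.2 and 1253 in Ihh-ablated and 759.3, 952.9 and 1097 in control samples, with overlap and a difference of 0.14. Srebf1 read 517.4, 521.0 and 571.9 in Ihh-ablated and 431.2, 477.1 and 514.0 in control samples. It did not overlap, by a narrow margin, and differed by 0.18 (interval -0.04 to 0.41, adjusted p = 0.298).

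Elongation and desaturation held the widest differences. Elovl6, the elongase that lengthens palmitate to stearate, was the 1 fatty acid member that was lower in Ihh-ablated samples. It read 221.5, 205.6 and 266.0 in Ihh-ablated and 372.1, 314.6 and 336.5 in control samples. The groups were clear of each other, with a difference of -0.57 (interval -0.86 to -0.28) and an adjusted p of 0.0580, just above the threshold. Its dimmest probe set read 102.7, 114.2 and 95.6 in Ihh-ablated and 160.8, 184.0 and 126.5 in control samples, a difference of -0.58 (0.0963), and the remaining one gave -0.38 with overlap. It passed in 4 of 19 alternatives: without control array 3 (-0.58, adjusted p = 0.0412), with array weights (-0.65, 0.0220), with robust eBayes (0.0471) and with the replicate number as a block (0.0382). It lay further from a call without control array 1 (-0.50, 0.170), without Ihh-ablated array 1 (-0.54, 0.186) or 2 (-0.49, 0.186) and with median-centred arrays (-0.48, 0.127).

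Scd1, the stearoyl-CoA desaturase of adipose tissue and liver, read 3150, 3111 and 7516 in Ihh-ablated and 608.6, 2002 and 2856 in control samples. Control array 1 stood far below and Ihh-ablated array 3 far above the rest, while Ihh-ablated arrays 1 and 2 lay just above control array 3. The difference of 1.47, which is 2.77-fold, has a wide interval of 0.28 to 2.65 (adjusted p = 0.155). Its second probe set read 263.2, 206.5 and 844.6 in Ihh-ablated and 58.3, 106.0 and 132.1 in control samples, a difference of 1.94 (adjusted p = 0.0781). Without control array 3, where 12.2% of all genes passed, so did the brightest probe set (1.93, adjusted p = 0.0415). Without control array 1 its difference was 0.81 (0.241), and without Ihh-ablated array 3 it was 1.05 (0.430).

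Scd2, the desaturase found in many tissues, had the 1 member probe set that passed. That probe set read 415.7, 347.5 and 400.3 in Ihh-ablated and 244.5, 284.2 and 227.0 in control samples. All Ihh-ablated arrays were higher than all control arrays, and it rose 1.54-fold (log2 0.62, SE 0.12, adjusted p = 0.0375). Brighter Scd2 probe sets gave 0.40 (1773, 1565 and 2036 in Ihh-ablated, 1377, 1447 and 1229 in control samples, adjusted p = 0.0848) and 0.23 (5621, 4848 and 5979 in Ihh-ablated, 4540, 4657 and 4813 in control samples, adjusted p = 0.131), also without overlap. The call was made in 11 of 18 alternatives. It was lost without control array 1 (adjusted p = 0.130), without any 1 of the Ihh-ablated arrays (0.160, 0.0613 and 0.157), with no filter on dim probe sets (0.0557) and without an intensity trend (0.0641). Desaturase genes are close relatives, and whether probes of 1 detect another was not tested.

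Fads1 and Fads2, the desaturases of polyunsaturated fatty acids, stayed near 0. Fads1 averaged 869 ± 81.7 in Ihh-ablated and 815 ± 28.7 in control samples (SD, n = 3 each), a difference of 0.09 (interval -0.11 to 0.29). Fads2 averaged 561 ± 39.7 in Ihh-ablated and 536 ± 38.9 in control samples (SD, n = 3 each), a difference of 0.07 (interval -0.15 to 0.29), with 0.21 and 0.22 from its other probe sets. Array by array, the mean log2 level of the 10 fatty acid members was 9.9, 9.85 and 10.24 in Ihh-ablated samples. In control samples it was 9.54, 9.74 and 9.93. Control array 3 lay above Ihh-ablated arrays 1 and 2, so the groups overlap in this branch too.

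**Figure D3:**
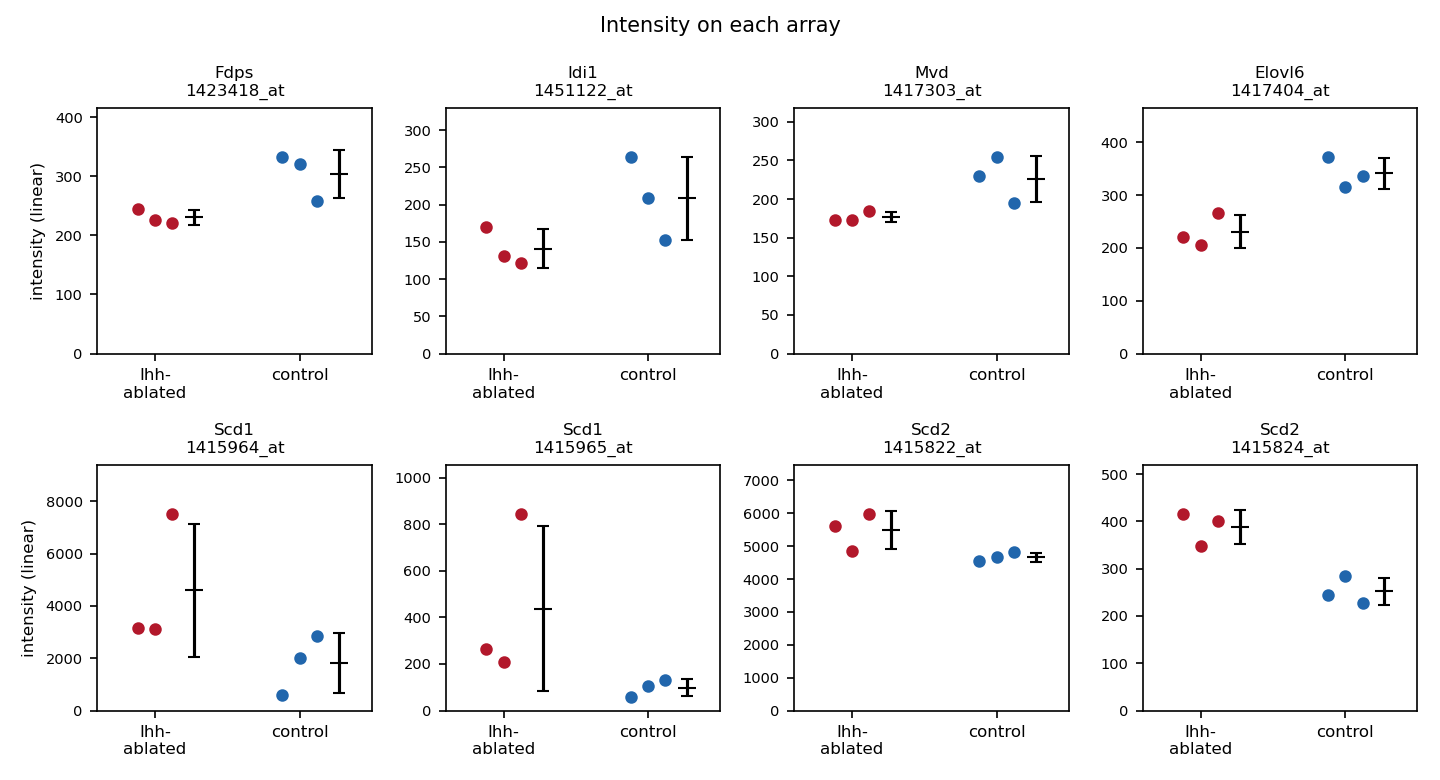
Linear intensity on each array for 8 probe sets of Fdps, Idi1, Mvd, Elovl6, Scd1 and Scd2, with Ihh-ablated arrays in red at the left and control arrays in blue at the right of each panel (points in the order of replicate 1 to 3, horizontal mark and bar: mean and SD). Idi1 is the 1 panel in which the groups overlap, and in Scd1 the Ihh-ablated spread comes from array 3, at 7516 and 844.6.

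Epithelial markers were higher on average along with the fatty acid branch, 9 of 10 with a median of 0.37, and 1 passed, Ltf (lactotransferrin; log2 0.98, adjusted p = 0.00861). Their part in the fatty acid result was not tested. Adipocyte transcripts also differed between arrays. The 12 measured adipocyte markers summed to 11904, 17059 and 26578 in Ihh-ablated and to 3911, 9110 and 14846 in control samples. Of the 11 tested, 8 were higher on average in Ihh-ablated samples and 0 passed, with a median of 0.70. The 3 lower ones were Slc2a4 (-0.38, adjusted p = 0.102), Aqp7 (-0.11) and Lep (-0.01). Slc2a4 was lower on every Ihh-ablated array than on every control array. Adipoq, the adipocyte hormone adiponectin, read 1288, 2240 and 3946 in Ihh-ablated and 266.2, 906.5 and 1649 in control samples, and Cidea, a brown fat marker, stayed between 61.0 and 75.7 on all arrays.

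Scd1 and Fasn were lowest on control array 1 and highest on Ihh-ablated array 3, which were also the arrays with the lowest and highest adipocyte sums. By their brightest probe sets, so were Acly, Acaca, Scd2, Fads2, Srebf1 and, in the sterol branch, Ebp. With the mean log2 level of the markers as a covariate, which uses 1 of 4 residual degrees of freedom, the difference was 0.24 for Scd1 (adjusted p = 0.601), 1.03 for its second probe set (0.498) and 0.02 for Fasn (0.932). That of Acaca was -0.20, and the median of the fatty acid branch was 0.06, against 0.17 without the covariate. The covariate left the called Scd2 probe set at 0.64 (0.286) and Elovl6 at -0.56 (0.406), close to their values without it, although neither passed in that fit. The brightest Scd2 probe set differed by 0.17 (0.544) with the covariate, against 0.23 without it. In the sterol branch the difference of Idi1 was then -0.13, that of Fdps -0.23 and the median -0.08. The markers' part in these differences was not tested further.

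**Figure D4:**
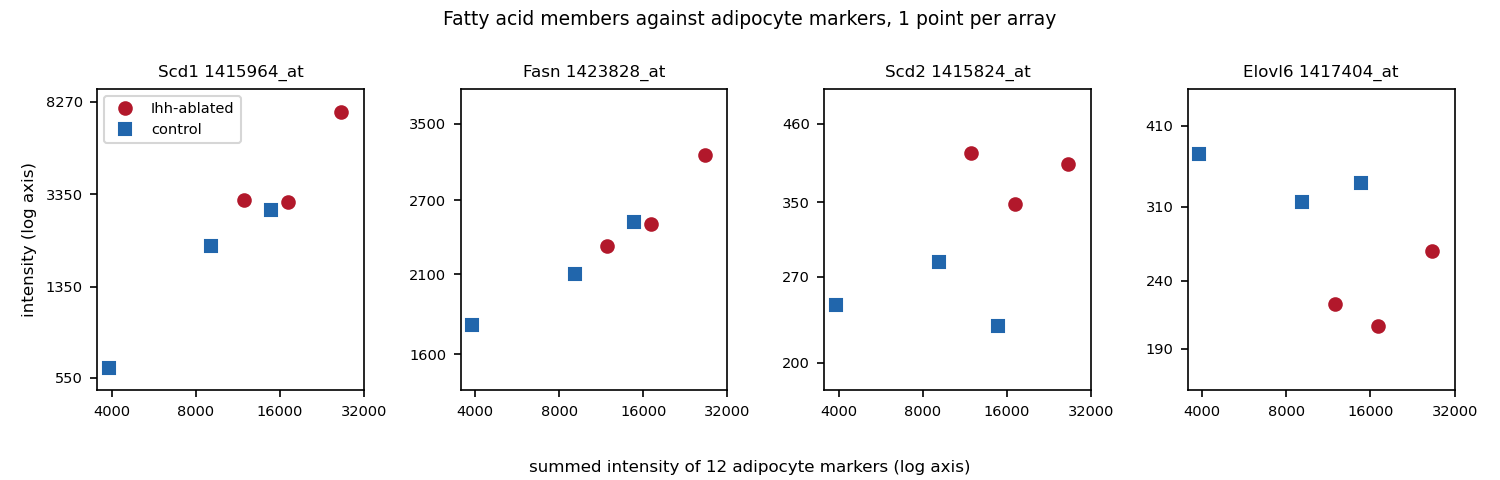
Intensity of 4 fatty acid branch probe sets (vertical, log axis) against the summed intensity of 12 adipocyte markers (horizontal, log axis), 1 point per array, Ihh-ablated as red circles and control as blue squares. The brightest Scd1 probe set and Fasn climb close to 1 line through both groups, whereas in the called Scd2 probe set and Elovl6 the groups lie apart at like marker sums. The second Scd1 probe set and the brightest Scd2 probe set are not drawn. The second Scd1 probe set read 263.2 on Ihh-ablated array 1 and 132.1 on control array 3, which has the higher marker sum of these arrays.

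Neighbouring genes of both routes were read from wider lists. Of 21 further tested sterol genes 2 rose, 0 fell and 19 did not pass, with a median of 0.10. Over all genes 1.28% rose and 1.53% fell. Mylip, a ubiquitin ligase that oxysterol-activated liver X receptors induce, read 813.7, 677.2 and 895.5 in Ihh-ablated and 462.7, 405.2 and 474.6 in control samples. It rose 1.77-fold (log2 0.82, SE 0.12, adjusted p = 0.0119) without overlap. Abca1, the transporter that exports cholesterol and another target of these receptors, read 1586, 1621 and 2086 in Ihh-ablated and 1313, 1116 and 1185 in control samples. It rose 1.46-fold (log2 0.54, adjusted p = 0.0450), also without overlap. Mylip was called in 16 of 19 alternatives, and not without control array 1 (0.0588), without Ihh-ablated array 1 (0.0626) or with the adipocyte covariate (0.159). Abca1 was called in 7 of 19. It lost the call without each single array but control array 3 (0.0646 to 0.131), with the adipocyte covariate (0.355), without an intensity trend (0.106) and with other scalings, filters or weights (0.0602 to 0.0735). The mean of all Abca1 probe sets differed by 0.31 (0.211).

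Among the sterol enzymes on that list, Tm7sf2, a sterol reductase, differed by -0.46 (adjusted p = 0.124) and Erg28, a scaffold of the demethylation complex, by -0.33 (0.128), while Hsd3b7, a bile acid enzyme, differed by 0.29 (0.136), each without overlap between groups. Of the 21 genes, 13 were higher and 8 lower on average. Of 24 further fatty acid and lipid storage genes 1 rose, 0 fell and 23 did not pass (median 0.18), where 1.28% of all genes rose. Gpam, the acyltransferase that starts triglyceride synthesis, read 2143, 2158 and 2565 in Ihh-ablated and 1429, 1539 and 1801 in control samples. It rose 1.44-fold (log2 0.53, adjusted p = 0.0347), and was called in 9 of 19 alternatives. The call was lost without control array 1 or 2 and without any 1 Ihh-ablated array (0.0599 to 0.131), with quantile normalization (0.0577), median-centred arrays (0.0579) or no filter (0.0576), and without an intensity trend (0.0997). With the adipocyte covariate it differed by 0.34 (0.290). Hacd1, a dehydratase of the elongation cycle that Elovl6 belongs to, read 1753, 1660 and 1610 in Ihh-ablated and 2246, 1955 and 2125 in control samples, a difference of -0.33 (adjusted p = 0.0514). Of 13 fatty acid oxidation genes 0 passed, with a median of 0.00. At an unadjusted p under 0.05 there were 2, or 15.4%, against 24.2% of all genes. The closest was Cpt1a, the carnitine transferase of the mitochondrial entry step, at -0.39 (adjusted p = 0.107).

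**Figure D5:**
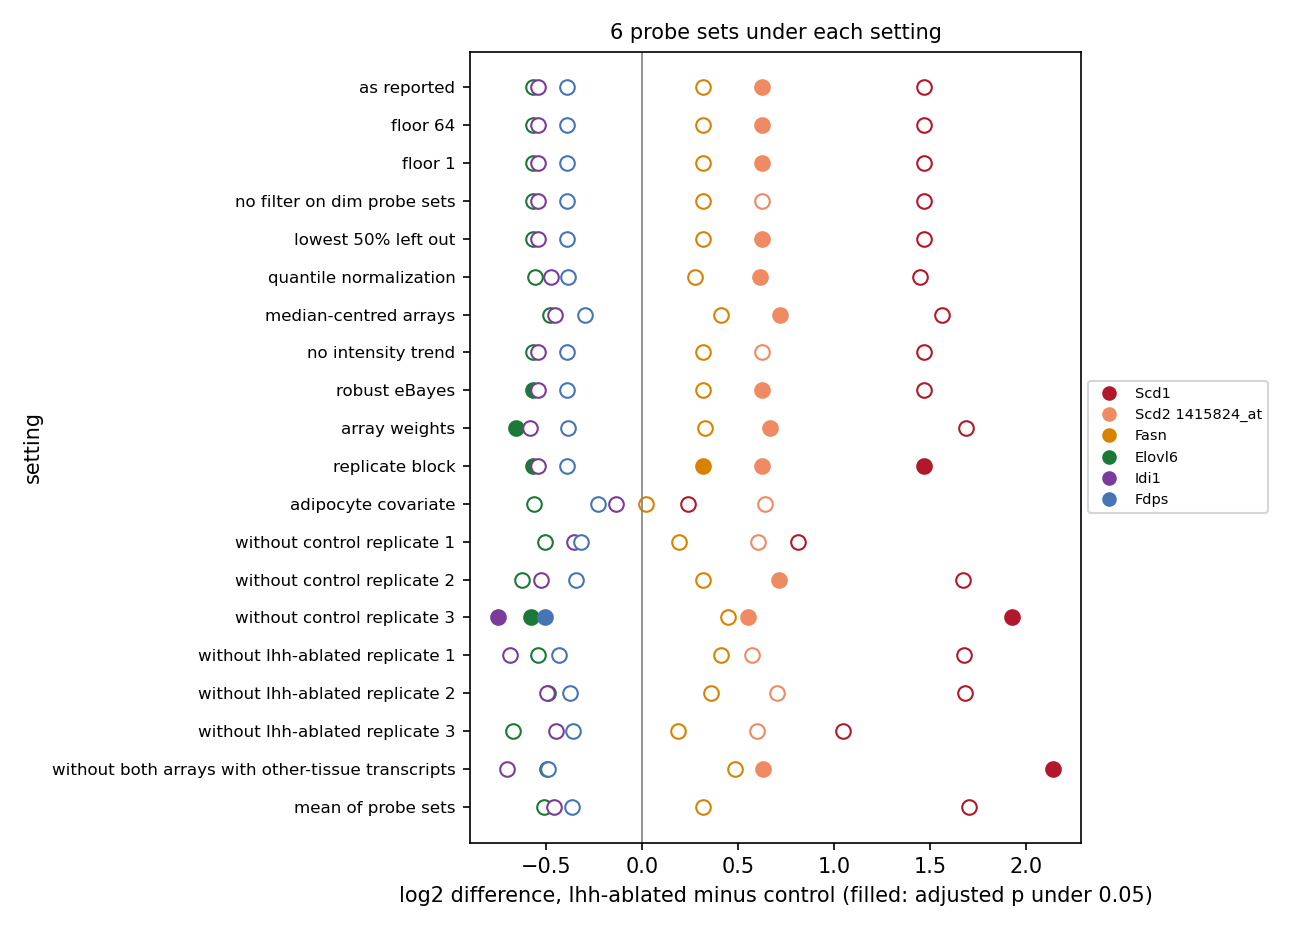
Log2 difference (horizontal) of 6 probe sets of Scd1, Scd2, Fasn, Elovl6, Idi1 and Fdps under each setting of the analysis (rows), filled where the adjusted p was under 0.05. Each probe set keeps its side of 0 in every row shown, and the adipocyte covariate brings Scd1 to 0.24 and Fasn to 0.02 while Elovl6 remains at -0.56.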

How the data were processed

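Per the labels' protocols, total uterine RNA was made into biotinylated cRNA for Affymetrix arrays. The deposited table holds a linear intensity for every probe set, as processed by the authors. How they summarised, background-corrected and normalized it is not stated in the labels or the file header, and dim probe sets would be changed most by them. Groups and replicate numbers come from the titles.

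Probe sets were named through the platform annotation. Of 45101 probe sets 64 controls were left out. Intensities under 16 were set to 16 before log2. Array medians of log2 differed by at most 0.231, so the authors' scaling was kept (limit 0.3). The dimmest 25% of probe sets (mean log2 under 6.16) were dropped, leaving 33778, and 10 member probe sets with them. limma 3.58.1 in R 4.3.3 (lmFit, eBayes with an intensity trend) compared the groups, with Benjamini-Hochberg adjustment over all tested probe sets. Each gene's value is that of its brightest probe set among those with 1 symbol. Differences are Ihh-ablated minus control. Precision is limited by having 3 arrays a group.

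All members were named, and from other lists the called genes and at most 3 of lowest p. The members and lists were chosen with earlier results of these data known. On simulated data of 33778 probe sets, the fit of Ihh-ablated against control found 73 of 100 simulated 2-fold changes and 98 of 100 simulated 4-fold changes, and 6 of its 177 calls were false. Its noise was drawn independently for each probe set and array, without shifts shared by many probe sets of an array. These rates therefore need not hold for the real arrays, and changes under 2-fold were not simulated. Alternatives changed the floor, filter, scaling, variance model, array weights, block, covariate, arrays, threshold and probe set rule. Python 3.11.15 and matplotlib 3.10.9 drew the figures.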

Additional observations from a re-analysis of the deposited data

How the results depend on the processing

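The number of fatty acid members that passed, 0 as reported, was 1 with robust eBayes, 1 with array weights, 1 at an adjusted p under 0.10, 3 without both control array 3 and Ihh-ablated array 2 (Scd1, Scd2 and Acss2) and 0 to 2 with each single array left out (Elovl6 and Scd1 without control array 3, Scd2 without Ihh-ablated array 2). For sterol members it was 0 to 2 with single arrays left out, the 2 being Fdps and Idi1 without control array 3, and 0 in every other alternative. Fatty acid members with a negative difference, 1 as reported, numbered 3 with the adipocyte covariate and 1 to 2 with single arrays left out. Of 29 members, 19 kept their sign in all alternatives run and 10, all with differences that did not pass in any of them, changed it in at least 1. The 724 probe sets called over the whole array became 374 without an intensity trend, 1411 with array weights, 34 with the adipocyte covariate, 1981 without control array 3 and Ihh-ablated array 2, 1852 at an adjusted p under 0.10 and 148 to 3582 with single arrays left out, lowest without control array 1 and highest without control array 3. Replicate numbers were not treated as pairs in the reported fit. Deviations of same-numbered arrays correlated at -0.15, -0.04 and 0.25, and those of differently numbered arrays at -0.24 to 0.32. These values cannot decide whether the samples were paired. Some members kept 1 order in both groups: Fasn and Acaca rose from array 1 to 3, and Idi1 and Fdps fell. Others, such as Mvd and Lss, did not. With the replicate number as a block, 3 fatty acid members passed (Scd1, Elovl6 and Fasn), 0 sterol members did, and 1562 probe sets were called. Causes of these shifts were not tested. Dim probe sets have no stated background, so small differences among them carry the least weight.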
